A study of Mus musculus with 12 samples.

Results

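The Schlafen (Slfn) family of cultured mouse oligodendrocyte precursor cells (OPCs) comprised 7 genes, Slfn1, Slfn2, Slfn3, Slfn4, Slfn5, Slfn8 and Slfn9, of the 55536 genes quantified. They were chosen by name, and the reads of each gene and of the family were compared between the groups and within pairs of libraries with the same replicate number. Schlafen genes are a mammalian family that many cell types turn on in response to interferons. They encode proteins with a shared core domain, and the longer ones carry a helicase-like region as well. Members are known for restraining the growth of lymphocytes, for binding or cutting transfer RNA and for limiting viral replication. Slfn1 and Slfn2 encode short proteins, Slfn3 and Slfn4 intermediate ones, and Slfn5, Slfn8 and Slfn9 long ones.

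Total RNA was sequenced from OPCs of P4 to P6 pups, isolated with a Sox10-GFP reporter or by the surface protein CD140a. The reporter mice carried Sox10:Cre, which is active in the entire oligodendrocyte lineage, with a loxP-controlled EGFP allele, and brains were pooled. Untreated cells (Ctr) were compared with cells given 1 µM dexamethasone, a synthetic glucocorticoid (Dexa), and with cells given IFN-γ, a cytokine of activated lymphocytes, at 100 ng/ml (IFNg), both for 48 h. Each group had 4 replicates from different litters. The labels do not say which isolation each library came from, and they name the EAE mouse model although the culture protocol describes pups and no immunization.

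The 11 complete libraries held between 19209063 and 52074652 reads assigned to genes. The table of Dexa replicate 3 stopped after 33.7% of its transcripts but listed every transcript of the 7 members, so its Schlafen reads are given and it is left out of the fit across genes. All 10 OPC markers passed the count minimum, and 1 was called lower in IFNg than in Ctr, or 7 with the replicate number as a block. Over all tested genes, DESeq2 called 8.02% higher and 4.83% lower in IFNg, or 15.2% and 14.1% with the block. The summed normalized counts of the OPC markers ranged from 194037 to 451552 in Ctr and from 130348 to 313066 in IFNg. The sum in IFNg was 0.672 to 0.715 of that in Ctr, lower in 4 of 4 pairs. Markers of immune cells were low in all groups. The summed level of 15 microglia and macrophage markers, 4 of them tested and none past the test for IFNg against Ctr, ranged from 65.2 to 99.2 normalized counts in Ctr, from 71.2 to 93.5 in Dexa and from 88.4 to 113 in IFNg, where it was higher than in Ctr in 4 of 4 pairs. The sum of 10 T and B cell markers lay between 8.05 and 19.9 in every complete library, and that of 8 monocyte and granulocyte markers, with S100a9 at 0 throughout, between 1.84 and 39.7. The sum of 8 astrocyte markers ranged from 18998 to 51570 in Ctr and from 35581 to 52294 in IFNg. Of these markers, 2 were called higher in IFNg, or 4 higher and 3 lower with the block. The astrocyte sum was 1.01 to 1.87 times that of Ctr in IFNg, higher in 4 of 4 pairs. In Dexa it was 1.28 to 1.34 times that of Ctr, higher in 3 of 3 pairs. Of 8 endothelial and mural markers, 1 was called higher in IFNg than in Ctr, Acta2, and with the block Kdr was also called lower. Their sum ranged from 247 to 365 in Ctr, from 412 to 566 in Dexa and from 508 to 708 in IFNg. It was 1.63 to 2.28 times that of Ctr in IFNg (higher in 4 of 4 pairs) and 1.38 to 1.81 times in Dexa (3 of 3). The mean of Acta2 was 101 normalized counts in Ctr and 434 in IFNg. Flt1, Kdr and Pdgfrb had lower means in IFNg than in Ctr, and Rgs5 a higher one. The part of these cells in the Schlafen results was not tested. In RNA from whole cultures, fewer cells of a type and less RNA per cell cannot be told apart.

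The 7 members lie in one cluster on chromosome 11, chr11:82951349-83215154 of GRCm38. Slfn5, Slfn9, Slfn8, Slfn2, Slfn1, Slfn4 and Slfn3 follow each other in this order, with the pseudogene Slfn10-ps between Slfn8 and Slfn2. Slfn9 and Slfn8 are on the minus strand and the other members on the plus strand. The 250 bases before the RefSeq start of Slfn9, Slfn8 and Slfn2 (GRCm38.p6) are shown because these genes carried most of the Schlafen reads of IFN-γ-treated OPCs. Capitals mark GAAANNGAAA or its other strand TTTCNNTTTC, the repeat to which interferon regulatory factors bind.

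Slfn9, chr11:82991831-82992080, minus strand: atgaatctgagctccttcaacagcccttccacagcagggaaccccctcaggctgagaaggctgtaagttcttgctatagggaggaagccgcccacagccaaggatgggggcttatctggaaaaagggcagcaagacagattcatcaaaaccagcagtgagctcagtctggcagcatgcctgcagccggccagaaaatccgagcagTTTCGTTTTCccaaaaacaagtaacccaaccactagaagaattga

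Slfn8, chr11:83020811-83021060, minus strand: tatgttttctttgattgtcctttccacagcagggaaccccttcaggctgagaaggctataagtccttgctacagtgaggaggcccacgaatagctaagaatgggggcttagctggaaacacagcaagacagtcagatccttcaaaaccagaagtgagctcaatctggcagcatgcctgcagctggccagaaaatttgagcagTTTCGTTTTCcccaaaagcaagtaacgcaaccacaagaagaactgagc

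Slfn2, chr11:83064862-83065111, plus strand: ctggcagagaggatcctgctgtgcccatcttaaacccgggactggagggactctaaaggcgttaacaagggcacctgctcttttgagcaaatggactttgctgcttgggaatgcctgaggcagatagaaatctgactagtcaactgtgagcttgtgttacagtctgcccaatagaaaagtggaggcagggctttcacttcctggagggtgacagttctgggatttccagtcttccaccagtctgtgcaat

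The Slfn9 and Slfn8 windows were 80.2% identical over an alignment of 262 columns, and both held TTTCGTTTTC, at bases -45 to -36 of Slfn9 and -48 to -39 of Slfn8. The Slfn5 window held 1 match, GAAAAAGAAA, at bases -155 to -146, and overlapped exons of other Slfn5 transcripts. Windows of Slfn1, Slfn2, Slfn3 and Slfn4 held no match. The repeat was found in 3.05% of 27025 promoter windows of the same length. A match describes these letters only and is not a binding site.

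In IFN-γ-treated OPCs the family was raised by 2 abundant and 2 scarce members. Slfn9 and Slfn8 carried nearly all of the reads, Slfn2 appeared from almost none, and Slfn5 reached 12 to 28 reads per library. Slfn1 and Slfn4 were listed at 0 in every library, and Slfn3 had at most 13 reads. No member was called for dexamethasone.

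**Figure D1:**
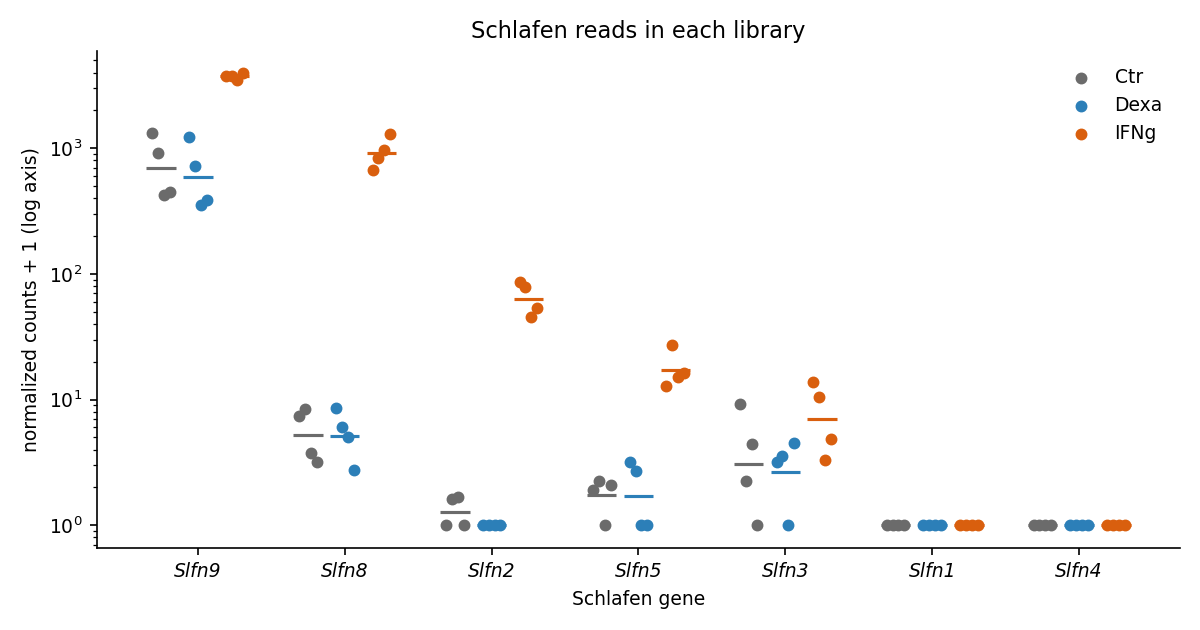
Normalized counts plus 1 (log axis) of the 7 Schlafen genes in each library, by group, with 4 points per gene and group and a line at the mean of the log values. IFNg points of Slfn9, Slfn8, Slfn2 and Slfn5 lie above all Ctr and Dexa points, and Slfn1 and Slfn4 are at 0 throughout.

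Slfn9, a long member, was the only Schlafen gene with at least 10 reads in all 11 complete libraries. Its normalized counts, reads divided by the library's size factor, were 1326, 910, 422 and 451 in Ctr replicates 1 to 4. In Dexa replicates 1 to 4 they were 1237, 719, 351 and 388, and in IFNg 3791, 3788, 3512 and 3944. All 4 IFNg libraries lay above all Ctr and Dexa libraries, whereas Ctr and Dexa overlapped. The log2 fold change of IFNg over Ctr was 2.27 ± 0.41 (SE), with an adjusted p of 6.38e-07 by DESeq2 and 0.00522 by edgeR's quasi-likelihood test. Over Dexa it was 2.27 ± 0.44, with adjusted p of 6.80e-06 by DESeq2 and 0.0106 by edgeR.

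The level of Slfn9 varied widely between replicates without IFN-γ and little with it. The SD of log2 normalized counts was 0.80 in Ctr, above that of 91.1% of the tested genes, whose median was 0.27. In IFNg it was 0.07, above that of 5.85% of the tested genes. The fold of IFNg over Ctr differed between the pairs, at 2.86 for replicate 1 (counting interval 2.69 to 3.04), 4.16 for replicate 2 (3.92 to 4.42), 8.32 for replicate 3 (7.62 to 9.09) and 8.75 for replicate 4 (7.90 to 9.72). These are exact 95% intervals and cover counting error only. Replicates 3 and 4, whose sample titles share a prefix, had the low Ctr levels and the high folds. Litter, isolation and whatever the prefix stands for cannot be told apart.

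Other measures also differed between replicates. The summed OPC markers were lowest in replicate 1 (194037 normalized counts in Ctr) and the summed astrocyte markers highest (51570), where Ctr Slfn9 was highest. In Ctr replicate 3 they were 451552 and 18998. Their part in the Slfn9 level was not tested.

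**Figure D2:**
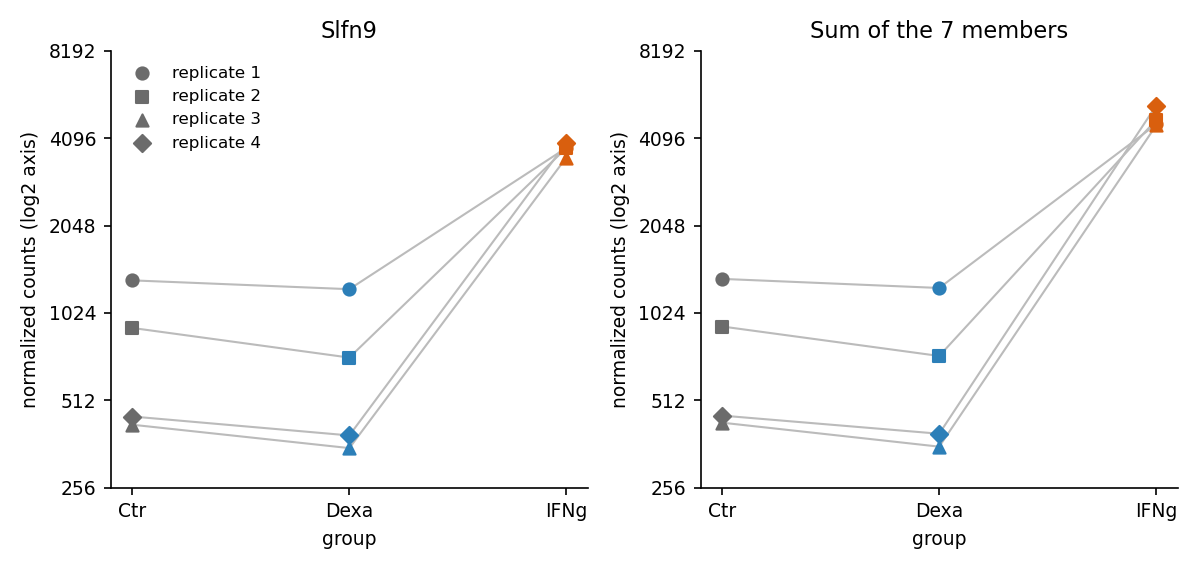
Normalized counts (log2 axis) of Slfn9 and of the 7 members summed in each group, with grey lines joining libraries of the same replicate number. Ctr and Dexa libraries spread from 351 to 1326 for Slfn9, and the 4 IFNg libraries lie between 3512 and 3944.

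Slfn8, the long neighbour of Slfn9, was close to absent without IFN-γ. It had 6.43, 7.43, 2.76 and 2.17 normalized counts in Ctr replicates 1 to 4, and 7.56, 5.05, 4.03 and 1.75 in Dexa. In IFNg it had 671, 833, 960 and 1288. Ctr and Dexa overlapped, and every IFNg library was higher than all of them. The summed rates gave a 186-fold increase over Ctr (counting interval 126 to 287), from 3385 against 25 reads. The log2 fold change was 7.59 ± 0.40, with an adjusted p of 9.43e-78 by DESeq2 and 3.51e-07 by edgeR. Slfn8 reached 10 reads in 5 complete libraries, 4 of them IFNg, so the count minimum set its direction.

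Slfn2, which protects transfer RNA from cleavage and is needed for quiescence of T cells, was the short member that rose. Its reads were 0, 1, 1 and 0 in Ctr replicates 1 to 4, and 0 in all 4 Dexa libraries. In IFNg they were 85, 82, 38 and 41, which are 84.5, 77.4, 44.3 and 52.6 normalized counts. The fold over Ctr was 169 with a counting interval of 46.2 to 1400, since Ctr held 2 reads, and over Dexa it was at least 70.5-fold higher, computed against 3 reads over the group. Adjusted p for IFNg against Ctr was 4.54e-11 by DESeq2 and 3.63e-05 by edgeR. Slfn2 passed the count minimum through IFNg alone, so its direction was set by the filter.

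Slfn5, a long member, rose at a much lower level. It had 1, 2, 0 and 1 reads in Ctr replicates 1 to 4, 2, 2, 0 and 0 in Dexa, and 12, 28, 12 and 12 in IFNg. No IFNg library overlapped with Ctr or Dexa. The fold over Ctr was 21.9, with a counting interval of 8.16 to 83.0 for 64 against 4 reads. The log2 fold change was 4.43 ± 0.86, with an adjusted p of 7.42e-06 by DESeq2 and 6.65e-04 by edgeR. Slfn5 also passed the count minimum through IFNg alone, which set its direction. Its antisense neighbour Slfn5os, on the opposite strand, was listed at 0 reads in all libraries of this strand-specific preparation.

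The remaining members gave no call. Slfn3 had 9, 2, 5 and 0 reads in Ctr, 2, 3, 0 and 2 in Dexa, and 13, 10, 2 and 3 in IFNg, so the groups overlapped. It was below the count minimum, and without that filter its log2 change was 1.16 ± 0.87 for IFNg over Ctr, with a DESeq2 adjusted p of 0.537. Slfn1 and Slfn4 had 0 reads in every library. A count of 0 allows up to 0.0180 RPM (reads scaled by the reads of the group, from a limit of 3 reads) in Ctr, 0.0337 in the 3 complete Dexa libraries and 0.0238 in IFNg, which limits counting error only.

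By DESeq2, 4 of the 7 members were called higher in IFNg than in Ctr, beside 8.02% of all tested genes called higher, 4.83% called lower and 12.8% called in either direction. By edgeR, 6.06% were higher and 8.44% called in either direction. With the replicate block the same 4 members were called, beside 15.2% of tested genes higher and 14.1% lower by DESeq2, and 16.0% and 15.3% by edgeR. The same 4 were called against Dexa, where 7.66% of tested genes were higher and 13.1% in either direction by DESeq2, and 5.66% and 8.77% by edgeR. In 8.66% of tested genes every IFNg library was above every Ctr library, and in 11.2% above every complete Dexa library. The minimum of 10 reads in 4 libraries was met by Slfn2 and Slfn5 through IFNg alone, and by Slfn8 through IFNg and 1 other library, so the direction of these members was set by the filter and only Slfn9 could have moved either way.

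No member was called for Dexa against Ctr, where 0.547% of tested genes were called by DESeq2, 0.508% higher and 0.0391% lower, and 0.123% by edgeR, 0.117% higher. With the replicate block no member was called either, while 2.05% of tested genes were higher and 0.513% lower by DESeq2, and 1.31% and 0.262% by edgeR. Slfn5 got no adjusted p from DESeq2 in this comparison, with or without the block, and was not called by edgeR. The log2 fold change was 0.01 ± 0.44 for Slfn9 and 0.08 ± 0.57 for Slfn8, both with an adjusted p of 1 by DESeq2 and edgeR. That fit set 4 Ctr libraries against the 3 complete Dexa libraries, without Dexa replicate 3, and ignored the pairing. The sign of both genes changed with the processing. With the replicate block, Slfn9 was at -0.12 by DESeq2 and -0.10 by edgeR, and Slfn8 at -0.0068 and 0.11. With 12 libraries over genes listed whole, Slfn9 was at -0.21 and Slfn8 at 0.02. In pairs, Slfn9 in Dexa was 0.933, 0.791, 0.831 and 0.861 of Ctr for replicates 1 to 4. It was lower in 4 of 4 pairs, and the counting intervals of replicates 1 and 4 included no change.

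The sum over the 7 members was higher in IFNg in every pair. Folds over Ctr were 3.41, 5.15, 10.6 and 11.7 for replicates 1 to 4, which is a mean log2 ratio of 2.77 ± 0.85 (SD, n = 4). Folds over Dexa were 3.66, 6.50, 12.8 and 13.5, and for Dexa over Ctr the mean log2 ratio was -0.23 ± 0.10. No test was made on the sum.

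Per transcript length and depth, in TPM, the order in Ctr was led by Slfn9 at 3.13 ± 1.61 (SD, n = 4), with Slfn8 at 0.0407 ± 0.0269 and Slfn3 at 0.0358 ± 0.0378 not separated by their spread. In IFNg, Slfn9 was at 17.3 ± 2.47, Slfn8 at 6.29 ± 1.70 and Slfn2 at 0.938 ± 0.336, and these ranges did not overlap. Slfn3 at 0.0949 ± 0.0669 and Slfn5 at 0.0756 ± 0.0489 followed and overlapped each other. In Dexa, Slfn9 was at 2.79 ± 1.75, and no other member exceeded 0.07 in any library.

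As shares of family reads, Slfn9 held 98.8% ± 0.36 in Ctr, 98.8% ± 0.17 in Dexa and 78.7% ± 3.65 in IFNg (SD, n = 4). Slfn8 made up 0.602% ± 0.158 in Ctr and 19.4% ± 4.19 in IFNg. Within IFNg the Slfn8 share ranged from 14.7% to 24.3%. IFNg did not overlap with Ctr or Dexa for either gene, whereas Ctr and Dexa overlapped for both, and since shares sum to a whole they are not independent.

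**Figure D3:**
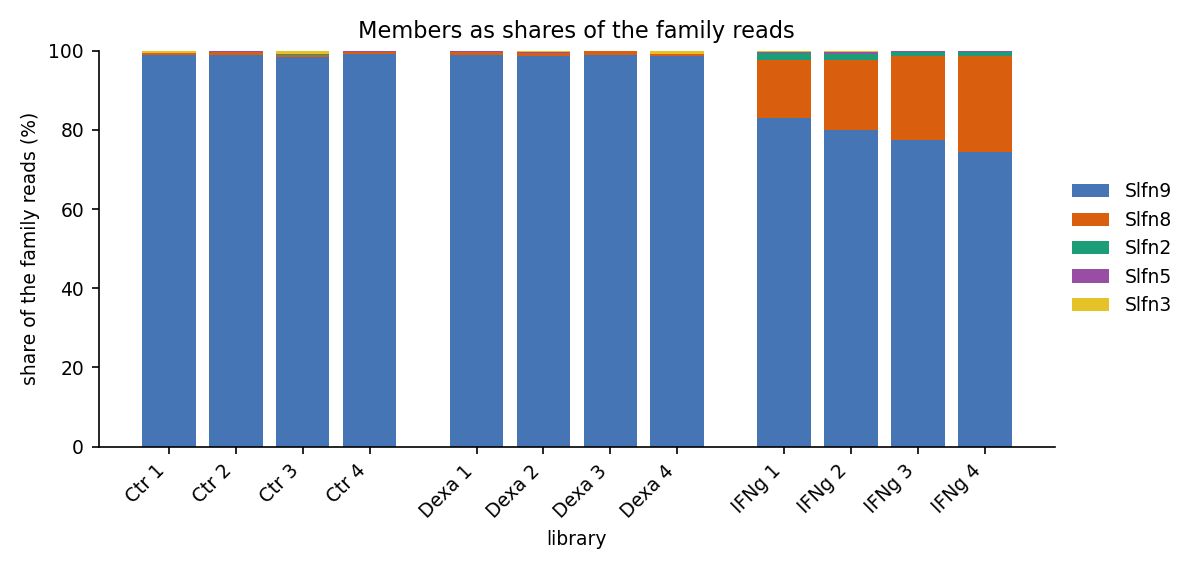
Share of the family reads (%) taken by each member in each of the 12 libraries. Slfn9 holds 98.4% to 99.3% in Ctr and Dexa and 74.4% to 82.9% in IFNg, where Slfn8 holds 14.7% to 24.3%.

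Reads of the near copies had to be divided between genes. Of the distinct 31-base words in transcripts, 26.8% of those of Slfn8 and 23.6% of those of Slfn9 also occurred in another gene, most often Slfn9 and Slfn10-ps. At 150 bases, the length of 1 read, it was 0% and 1.46%. Slfn10-ps itself went from 16 to 315 reads over the 4 libraries, with a log2 fold change of 4.86 ± 0.77 and a DESeq2 adjusted p of 1.08e-08. Slfn14, beyond the end of the cluster, had 14 reads over the 4 Ctr libraries and 11 over the 4 IFNg libraries, and Slfnl1 on chromosome 4 had 17 in each, both below the count minimum. Counting Slfn8, Slfn9 and Slfn10-ps as 1 feature gave 2.61 ± 0.41 with an adjusted p of 5.41e-09.

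Most Slfn9 reads were assigned to transcript Slfn9-201, which took 87.7% ± 1.93 of its reads in Ctr and 88.1% ± 1.37 in IFNg. In IFNg, reads of Slfn8 were assigned to Slfn8-201 at 44.7% ± 7.58, with Slfn8-202, Slfn8-203 and Slfn8-204 next at 23.6%, 17.3% and 14.4%. Ctr held too few Slfn8 reads for a comparison.

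Of 16 tested genes outside the family within 500 kb of the cluster, 1 was called higher and 2 lower in IFNg than in Ctr. With the replicate block 1 was higher and 3 lower. Over all tested genes, DESeq2 called 8.02% higher and 4.83% lower, or 15.2% and 14.1% with the block. The median log2 change of the 16 genes was -0.14 for IFNg over Ctr, against -0.02 for all tested genes. Fndc8 fell by 1.08 (adjusted p = 0.0143) and Rasl10b fell by 0.57 (adjusted p = 0.0194) on the log2 scale by DESeq2. The gene called higher, the lincRNA 1190001M18Rik, lies within the cluster, 3′ of Slfn9, and rose by 2.95 ± 0.40 (DESeq2 adjusted p = 6.59e-12). Its normalized counts were 6.43, 6.20, 3.44 and 5.43 in Ctr and 40.7, 44.4, 38.5 and 41.1 in IFNg. RefSeq ends Slfn9, which runs on the minus strand, at base 82974316, where GENCODE begins the interval of this lincRNA, so the annotations assign that stretch to different genes.

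**Figure D4:**
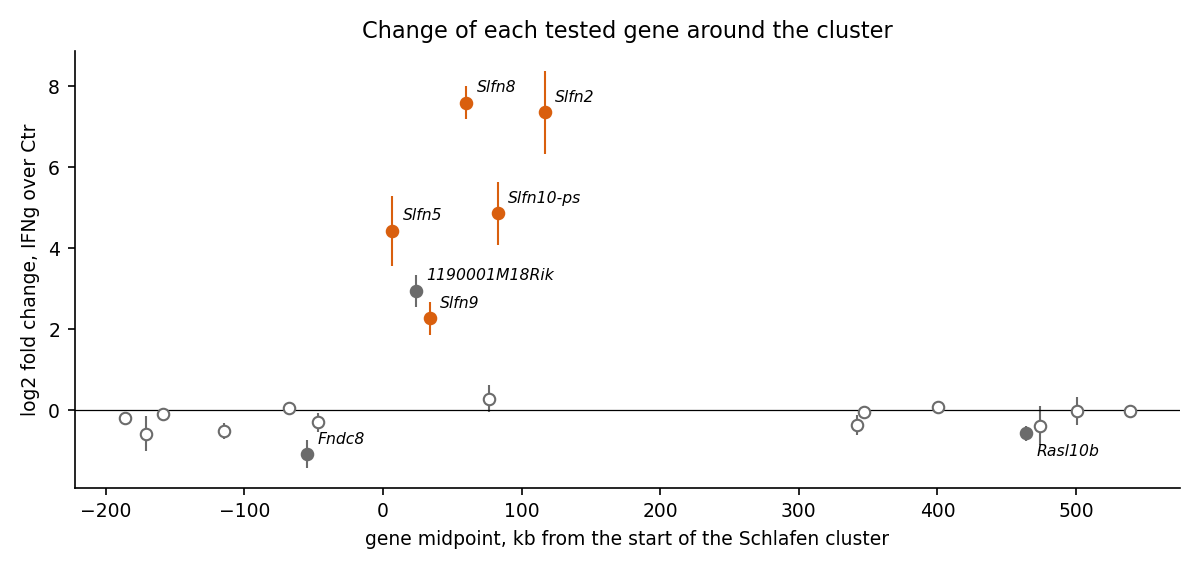
Log2 fold change of IFNg over Ctr with its standard error for each of the 21 tested genes around the cluster, by gene midpoint in kb from the cluster start, with Schlafen genes in orange and filled points for an adjusted p under 0.05. Schlafen genes and 1190001M18Rik lie between 2.27 and 7.59, and the other genes between -1.08 and 0.28.

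The IFN-γ pathway was measured beside the family. Of 16 listed signalling genes, all tested, 13 were called higher and 1 lower in IFNg against Ctr by DESeq2. Their median log2 change was 2.53, and none was called in Dexa against Ctr. The shares over all tested genes were 8.02% higher and 4.83% lower for IFNg, and 0.547% in either direction for Dexa. The transcription factors Irf8 and Irf1 rose by 6.78 ± 0.13 and 6.01 ± 0.10 on the log2 scale. The feedback genes Usp18 and Socs1 rose by 6.17 ± 0.23 and 6.08 ± 0.17. Of 15 interferon ligands and type I receptor genes, 9 were listed at 0 in every library, Ifnb1 among them, and 1 of 2 tested was called higher, the receptor gene Ifnar2 (0.69 ± 0.12).

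The calls of lists tied to Schlafen functions depended on the pairing of the libraries. Of 12 tested replication stress genes, 1 was called higher in IFNg than in Ctr by DESeq2, Cul4b (0.75 ± 0.11), against 8.02% of all tested genes, and 6 with the replicate block, against 15.2%. The list's median log2 change was 0.24 without the block and 0.30 with it, and its summed counts were 1.05 to 1.16 times those of Ctr, higher in 4 of 4 pairs. Rpa1, a single-strand DNA binding subunit, was at 0.37 ± 0.35 with an adjusted p of 0.620, and at 0.43 ± 0.09 with an adjusted p of 3.26e-05 with the block. Of 13 tested quiescence and G1 genes, 1 was called higher, the inhibitor Cdkn1a (1.21 ± 0.32, adjusted p = 0.00256), and with the block 4 were called higher and 1 lower. The list's median was 0.20 without the block and 0.22 with it, and its sum was 1.16 times that of Ctr or more, higher in 4 of 4 pairs. Ccnd1, cyclin D1, was at 0.77 ± 0.35 with an adjusted p of 0.146, and at 0.78 ± 0.07 with an adjusted p of 2.49e-27 with the block.

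Across the 11 complete libraries, the genes whose log2 normalized counts were most like the family sum were Trim56 (Pearson r = 0.992), Tmed10 (0.989), Rnd3 (0.988), Nradd (0.984) and Rbms1 (0.983). The libraries share their treatment groups, and r is a description with no test.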

How the data were processed

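Total RNA was sequenced from 12 libraries, 4 each of Ctr, Dexa and IFNg. The authors quantified each with Salmon 0.8.2, per the submitters' processing notes, and deposited estimated counts and TPM per transcript. The identifiers matched GENCODE M21 (GRCm38). The authors' own comparison tables, which hold fold changes and p-values, were not used. Estimated counts were summed per gene and rounded.

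The 11 complete libraries were fitted together with DESeq2 1.42.0 (Wald test, no covariate, Benjamini-Hochberg adjustment, calls at 0.05), and edgeR 4.0.16 was an alternative. The 17919 genes that reached 10 counts in 4 or more libraries were tested. DESeq2's default filter on mean count was left on, so some tested genes got no adjusted p from it. The size factor of Dexa replicate 3, whose table is incomplete, came from a 12-library fit of genes listed whole. In simulated data with known changes both tools recovered the fold sizes, but more of DESeq2's calls were false than its threshold allows. Those of edgeR stayed near it, so edgeR's p stands beside each called member. The simulation drew each gene's spread from a trend fitted with edgeR and held no litter effect. It cannot give the share of false calls in these data. Without the block, p-values are set against the spread between libraries of a group, which came from different litters, and ignore the pairing. With the block they are set against the spread left after differences between replicate numbers are removed.

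Same-numbered libraries deviated together from their group means (r of 0.404 to 0.722 over 10 pairs, against -0.614 to 0.495 for other pairs). These ranges overlap. The numbers were taken to pair the libraries, and a replicate block was an alternative. Named beside the members were the genes with the largest change in each list, at most 4 a list, with Irf1, Ifnb1, Ccnd1, Rpa1 and others fixed by name, the other Schlafen genes, genes around the cluster and the 5 genes most like the family sum. Some listed items are not reported here. Members and lists were chosen with earlier results of these data known. Motifs and shared words were searched with Python 3.11.15, and promoters aligned with Biopython 1.88.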

Additional observations from a re-analysis of the deposited data

How the results depend on the processing

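Under 20 alternatives to the fit, 9 of method and 11 that each left out 1 library, the members called stayed at 4 for IFNg against Ctr and against Dexa, and at 0 for Dexa against Ctr. The exception for both was counting near copies together, which left 3 features, all called. The direction of Slfn2, Slfn5 and Slfn8 was set by the count minimum, so only Slfn9 could have moved either way. All alternatives reuse the same reads. With the replicate block, Slfn9 in IFNg over Ctr was 2.48 on the log2 scale and no member's call changed, although 2717 genes were called higher and 2521 lower over all tested genes, against 1437 and 865 without the block. Leaving out 1 library gave 2.07 to 2.66 for Slfn9 and 7.37 to 7.96 for Slfn8. For the 4 called members, the highest adjusted p of any alternative for IFNg against Ctr was 0.00522, for Slfn9 by edgeR.

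For Dexa over Ctr, where nothing was called, the sign was not fixed. Slfn9 was at -0.12 with the replicate block, at -0.10 in edgeR with the block, and at -0.21 and -0.22 with 12 libraries over genes listed whole, without and with the block. Slfn8 was at -0.0068 with the replicate block and at -0.11 with transcript length offsets. Leaving out 1 library gave -0.49 to 0.40 for Slfn9 and -0.33 to 0.44 for Slfn8. The cause was not tested. The family sum stayed within its spread over pairs, at 2.51 to 3.10 for IFNg over Ctr when 1 pair was left out and 3.07 in TPM. TMM factors were not computed for Dexa replicate 3, so that alternative rests on 3 Dexa pairs.

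Counts limit Slfn2, Slfn5 and Slfn3, whose Ctr and Dexa reads were near 0. More of DESeq2's calls were false than its threshold allows in simulated data, which held no litter effect, so edgeR's adjusted p is the more cautious value.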
